A study of Mus musculus with 24 samples.

Results

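The lysosomal cathepsins and lysosomal membrane proteins were followed here through 10 listed genes, matched by mouse symbol to the Ensembl identifiers of the count table. They were the cysteine cathepsins Ctsb, Ctsc, Ctsl, Ctss and Ctsz, the serine carboxypeptidase Ctsa, the aspartic protease Ctsd, and the membrane proteins Lamp1, Lamp2 and Cd63. All 10 were found among 55359 measured genes, and all 10 passed the filter on low counts in each comparison. The genes were measured in cultured oligodendrocytes of C57BL/6J mouse pups (cortex) aged 5 to 7 days, sorted with an antibody against the surface antigen O4 and differentiated for 3 days with triiodothyronine (T3) as the main factor. Experiment 1 (batch 1) had 6 control samples without ethanol and 6 samples kept for 3 days in 30 mM ethanol, and experiment 2 (batch 2) had 6 control samples and 6 samples in 10 mM ethanol. Control plates stood in an incubator of their own, and an effect of ethanol cannot be told apart from one of the incubator, nor dose from experiment. The labels number the samples as biological replicates and do not say whether these came from separate animals or cultures, so p-values measure only the spread between these samples, which may be technical.

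Lysosomes are acidic organelles in which cells break down proteins, lipids and sugars delivered by endocytosis and autophagy. Cathepsins are their main proteases. They are made as inactive precursors, reach the lysosome largely through mannose 6-phosphate receptors and become active at low pH. LAMP1 and LAMP2 are heavily glycosylated proteins that cover the inner face of the lysosomal membrane, and CD63 is a tetraspanin of late endosomes, lysosomes and exosomes. In the brain most of these genes are used by many cell types, though not all of them by every type. Phagocytic microglia are known for high levels of several cathepsins, among them cathepsin S. Oligodendrocytes store and recycle myelin proteins through late endosomes and lysosomes.

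Total counts ranged from 1184609 to 1817028 per sample, so that 3 counts, taken as the floor of detection, equalled 1.65 to 2.53 CPM (counts scaled to a common library total). These floors cover counting error only. The oligodendrocyte markers (8 genes) summed to between 4770 and 6140 CPM in the controls of both experiments and at 10 mM. At 30 mM they summed to 6520 to 6690 CPM in 5 samples and to 11300 CPM in replicate 1, which stood apart. Microglia markers (14 genes, with none at 0 in any group) summed to 235 to 395 CPM in the samples of experiment 1 and to 3080 to 3900 CPM in those of experiment 2. Astrocyte markers (8 genes) summed to between 3880 and 6850 CPM in all samples.

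Many lysosomal genes carry the sequence CACGTG near their start, the core of the element bound by the transcription factor TFEB, which is known as the CLEAR element in its full palindrome of 10 bases. RefSeq promoters (250 bases before to 50 after the start, build GRCm38.p6) were found for 9 of the 10 genes, with a pair of alternative starts for Ctsa and none for Ctsb. CACGTG, which reads the same on both strands, was found in 4 of these 9 genes (Ctsa, Ctsd, Ctsl and Lamp1) and in 7.15% of 32851 promoters of the same length in the mouse table. The longer TCACGTGA, which contains it, was found in Ctsa and Ctsd and in 0.974% of all promoters, and the full CLEAR palindrome in none of the 9 genes and in 0.326% of all. Among 89 other lysosomal genes with a promoter in the table, 22 (24.7%) held CACGTG, against 8.09% of all genes. The motif GAGGAAGT, a form of the site bound by the myeloid factor PU.1, was searched on both strands. It was found in Ctss and Ctsc, in 3 of the 89 genes (3.37%) and in 3.69% of all genes (3.20% of all promoters). A match describes the letters of the window and is not a measured binding site, and the motifs were chosen after the data were seen.

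The 120 bases before the start are shown 5′ to 3′ for the 3 genes with CACGTG in that stretch, and for comparison for Ctss and Lamp2. In the results that follow, Ctss had the largest estimated difference between the experiments, and Lamp2 did not pass. Capitals mark CACGTG. They lie at chr8:13159041-13159160 on the plus strand (Lamp1), chr7:142387828-142387947 on the minus strand (Ctsd), chr2:164833653-164833772 on the plus strand (Ctsa, second start), chr3:95526666-95526785 on the plus strand (Ctss) and chrX:38456461-38456580 on the minus strand (Lamp2).
Lamp1: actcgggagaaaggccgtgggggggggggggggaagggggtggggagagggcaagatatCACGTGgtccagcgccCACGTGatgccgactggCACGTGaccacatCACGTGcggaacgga
Ctsd: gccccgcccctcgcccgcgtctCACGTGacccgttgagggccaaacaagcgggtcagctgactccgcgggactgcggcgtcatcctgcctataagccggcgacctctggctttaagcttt
Ctsa: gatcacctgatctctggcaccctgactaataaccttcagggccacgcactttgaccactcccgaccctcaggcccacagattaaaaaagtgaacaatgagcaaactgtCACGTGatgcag
Ctss: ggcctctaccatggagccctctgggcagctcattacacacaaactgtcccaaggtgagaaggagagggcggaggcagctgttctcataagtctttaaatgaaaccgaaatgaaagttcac
Lamp2: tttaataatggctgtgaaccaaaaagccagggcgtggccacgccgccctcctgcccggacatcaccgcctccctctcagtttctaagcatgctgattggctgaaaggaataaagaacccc
The Lamp1 stretch held 4 copies, beginning at positions -61, -45, -28 and -15 from the start, while those of Ctss and Lamp2 held none. Ctsd had a further copy at -245, Ctsl had its only one at -236, and Ctsa had a second one at base 6 of the transcript. The map of motif matches shows these distances.

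**Figure D1:**
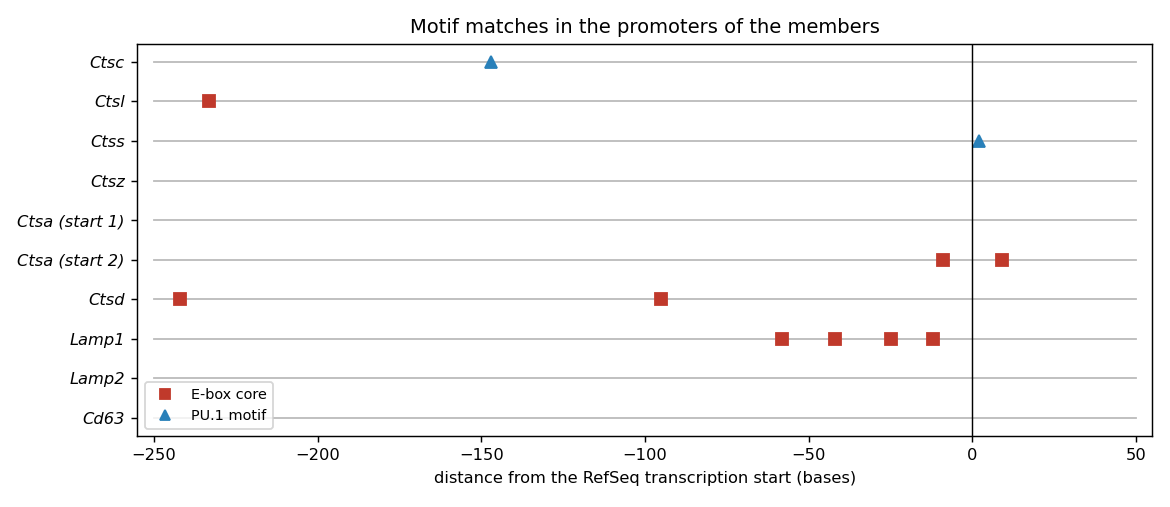
Positions of CACGTG (squares) and GAGGAAGT (triangles) in the RefSeq promoters of 9 of the genes, with the distance in bases from the transcription start on the horizontal axis and 1 line per start. Lamp1 holds 4 squares, from -61 to -15, and Ctsz, Lamp2, Cd63 and the first start of Ctsa hold no match.

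The untreated samples showed where these genes stood before ethanol was added to the comparison. Cathepsin transcripts were much scarcer in the controls of experiment 1 than in those of experiment 2, while the membrane protein genes differed little. The 10 genes together took 0.551% ± 0.0270 (SD, n = 6) of all counts in the controls of experiment 1 and 1.21% ± 0.0465 (SD, n = 6) in those of experiment 2. By edgeR's quasi-likelihood test with Benjamini-Hochberg adjustment over all genes, called at an adjusted p under 0.05, 9 of 10 genes were lower in experiment 1 and Lamp2 did not pass. With an absolute log2 fold change of at least 0.5 also required, 6 remained, without Ctsc, Cd63 and Lamp1. For comparison, 43.6% of all 13479 genes tested were called between these groups, 22.3% as lower and 21.3% as higher. For the same 9 genes all 6 samples of experiment 1 lay below all 6 of experiment 2. Of all genes, 18.6% had groups without overlap in either direction. The median log2 fold change was -1.19 over the 10 genes and -0.008 over all genes. The experiments are also the batches of the labels, so culture and batch cannot be told apart here.

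Cathepsin S, an elastin- and collagen-degrading protease that also trims the invariant chain of MHC class II, had the largest estimated difference. Its CPM had a low of 33.6, a median of 43.0 and a high of 56.1 in the controls of experiment 1, and of 210, 229 and 245 in those of experiment 2. The ethanol samples followed their experiment, with 25.3 to 45.8 CPM at 30 mM and 209 to 251 CPM at 10 mM, so the experiments did not overlap in any group. The log2 fold change between the controls was -2.37 (SE 0.0853, adjusted p = 6.29e-41), 0.194 times the level of experiment 2. Ctsz, which encodes cathepsin X, a carboxypeptidase, had 100 to 136 CPM (median 120) in the controls of experiment 1 and 474 to 582 CPM (median 520) in those of experiment 2. Its log2 fold change was -2.15 (SE 0.0665, adjusted p = 7.9e-46). The 95% intervals of the fold changes of Ctss (-2.54 to -2.20) and Ctsz (-2.29 to -2.02) overlapped, so their order is not settled.

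The genes Ctsl, Ctsd, Ctsa and Ctsb differed by less. Ctsl, the gene of cathepsin L, had 353 to 504 CPM (median 471) in the controls of experiment 1 and 1250 to 1440 CPM (median 1340) in those of experiment 2, a log2 fold change of -1.56 (SE 0.0584, adjusted p = 9.55e-40). Ctsd, the gene of the aspartic protease cathepsin D, had 1890 to 2220 CPM (median 2130) against 4860 to 5610 CPM (median 5200), with -1.32 (SE 0.0541, adjusted p = 8.23e-37). In both genes the highest sample of experiment 1, ethanol samples included, stood below 0.5 times the lowest of experiment 2. Ctsa, whose product also shields the glycosidases GLB1 and NEU1 from degradation, had 80.3 to 135 CPM against 238 to 270 CPM and a log2 fold change of -1.26 (SE 0.0739, adjusted p = 1.27e-26). Ctsb, the gene of cathepsin B, had 826 to 1130 CPM (median 1070) against 2090 to 2340 CPM (median 2270), with -1.11 (SE 0.0562, adjusted p = 1.26e-30). The intervals of Ctsd (-1.42 to -1.21) and Ctsa (-1.41 to -1.12) overlapped, and that of Ctsl (-1.68 to -1.44) lay beyond them.

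Cathepsin C, the dipeptidyl peptidase that activates granule serine proteases, differed least among the proteases. Ctsc had 32.8 to 47.3 CPM (median 39.8) in the controls of experiment 1 and 51.6 to 62.8 CPM (median 54.6) in those of experiment 2, a log2 fold change of -0.46 (95% interval -0.68 to -0.25, adjusted p = 0.00028). Counts behind it were small, with 48 to 91 per control sample.

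The membrane proteins had differences no larger than that of Ctsc. Cd63 had 874 to 1060 CPM (median 1010) in the controls of experiment 1 and 1190 to 1380 CPM (median 1270) in those of experiment 2, a log2 fold change of -0.37 (SE 0.0533, adjusted p = 9.1e-09). Lamp1 had 371 to 502 CPM (median 456) against 505 to 580 CPM (median 553), with -0.30 (SE 0.0575, adjusted p = 8.67e-06). Lamp2, whose splice forms serve chaperone-mediated autophagy and autophagosome fusion, was the exception. It had 257 to 293 CPM (median 282) in experiment 1 and 231 to 300 CPM (median 269) in experiment 2, so the groups overlapped, and its log2 fold change was 0.03 (95% interval -0.09 to 0.16, adjusted p = 0.683). The sign of this last value was negative under some scalings, with values down to -0.03.

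Microglia markers differed in the same direction as the cathepsins and, in the median, by more. All 13 tested of the 14 were lower in the controls of experiment 1, with a median log2 fold change of -3.41. Ptprc (-1.35) and Tmem119 (-1.81) differed least, by less than Ctss and Ctsz. Cx3cr1, the fractalkine receptor of microglia, had a mean of 5.38 CPM in experiment 1 and 115 CPM in experiment 2, and C1qa of 55.1 and 407 CPM. Of 8 oligodendrocyte markers 1 was called lower, and their median was -0.03. Other cell types moved in both directions. Astrocyte markers were higher in 5 and lower in 2 of 8 cases (median 0.24), and fibroblast and mural markers higher in 2 and lower in 4 of 8 (median -0.26), with the smooth muscle genes Acta2 (3.92) and Tagln (2.96) far above the rest. Precursor markers were lower in 3 of 4 cases, neuron markers in 2 of 4, and endothelial markers higher in 1 and lower in 1 of 3. The part of these cell types, microglia included, in the cathepsin differences was not tested. In bulk RNA, fewer cells of a type and less RNA per cell cannot be told apart.

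**Figure D2:**
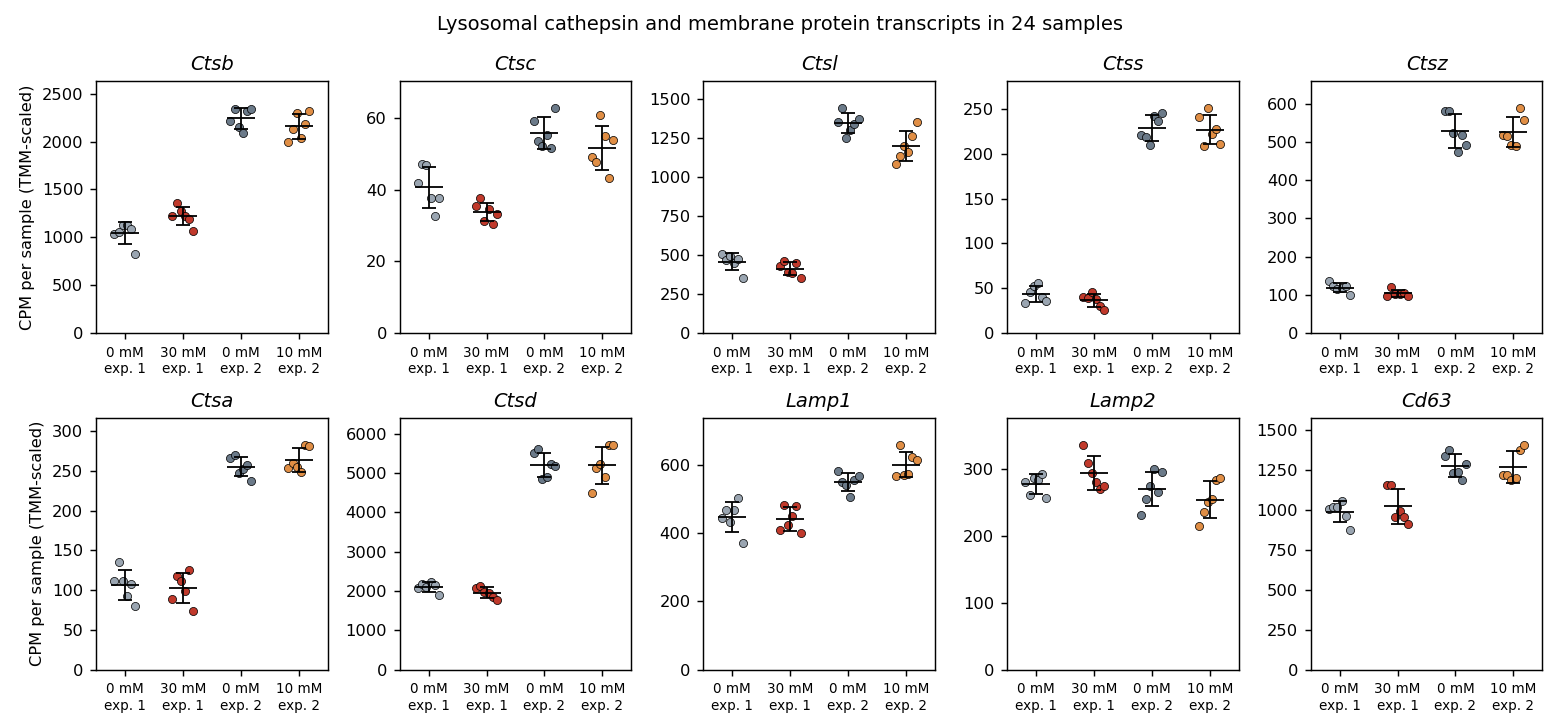
CPM of the 10 genes in each of the 24 samples (points), with the mean and SD of each group of 6 (bars) on linear axes that start at 0. Ctss lies at 25.3 to 56.1 CPM in experiment 1 against 209 to 251 CPM in experiment 2, while over all samples the experiments overlap for Ctsc (30.5 to 47.3 against 43.2 to 62.8) and Lamp2.

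Other lysosomal genes, from lists of related functions, were divided. Of 106 tested, 41 were lower and 23 higher in the controls of experiment 1, with a median log2 fold change of -0.13, and 42 did not pass. Of all genes tested, 22.3% were lower and 21.3% higher. Among other proteases 4 of 8 were lower and 1 higher. Lgmn, the asparaginyl endopeptidase that cleaves cathepsin precursors, had -1.88 (SE 0.0647, adjusted p = 2.69e-42), and Ctsh, an aminopeptidase, had -0.90. All 6 lipid-binding and luminal protein genes were called, 4 lower and 2 higher. Grn, the gene of progranulin, had -1.03, and Psap, the precursor of the saposins, had -0.88. Of 32 other hydrolases 17 were lower and 4 higher, among them Pla2g15 (-1.88) and Gusb (-1.58), which encode a phospholipase and beta-glucuronidase.

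Other membrane proteins covered a wide range. Of 21 tested, 8 were lower and 3 higher. Laptm5, of hematopoietic cells, had -3.86 (SE 0.0980, adjusted p = 3.23e-52) and Cd68, of macrophages and microglia, had -2.99. The proton pump (V-ATPase) genes had 2 lower and 4 higher of 18, with a median of -0.01. Atp6v0b, a subunit of the membrane sector, had -0.31, and Atp6v0d2, a subunit used in macrophages and osteoclasts, had a mean of 0.289 CPM, under the floor, in experiment 1 and 22.4 CPM in experiment 2.

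Genes of sorting to the lysosome had 4 lower and 8 higher of 16, with a median of 0.15. Igf2r, the large mannose 6-phosphate receptor, had -0.85, while M6pr, the other such receptor, was higher with 0.50 (adjusted p = 6.66e-06). Nagpa, the enzyme that uncovers the mannose 6-phosphate tag, had -1.05. Of 3 tested transcription factors of the TFE family only Tfe3 passed, at -0.26 (adjusted p = 0.0276). That call was lost without control replicate 4 or 5 of experiment 1 or control replicate 3, 5 or 6 of experiment 2 (adjusted p 0.0512 to 0.107) under DESeq2 (adjusted p = 0.0700) and without the filter on low counts (adjusted p = 0.157). Both tested cathepsin inhibitors of the cystatin family were called in opposite directions. Cst3, the secreted cystatin C, was higher in experiment 1 with 0.55 (SE 0.0539, adjusted p = 1.08e-14), and Cstb, the cytosolic cystatin B, was lower with -0.37. Of 8 tetraspanins other than Cd63, 3 were lower and 4 higher, and the leukocyte members Cd37 (-3.89) and Cd53 (-2.66) differed most.

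**Figure D3:**
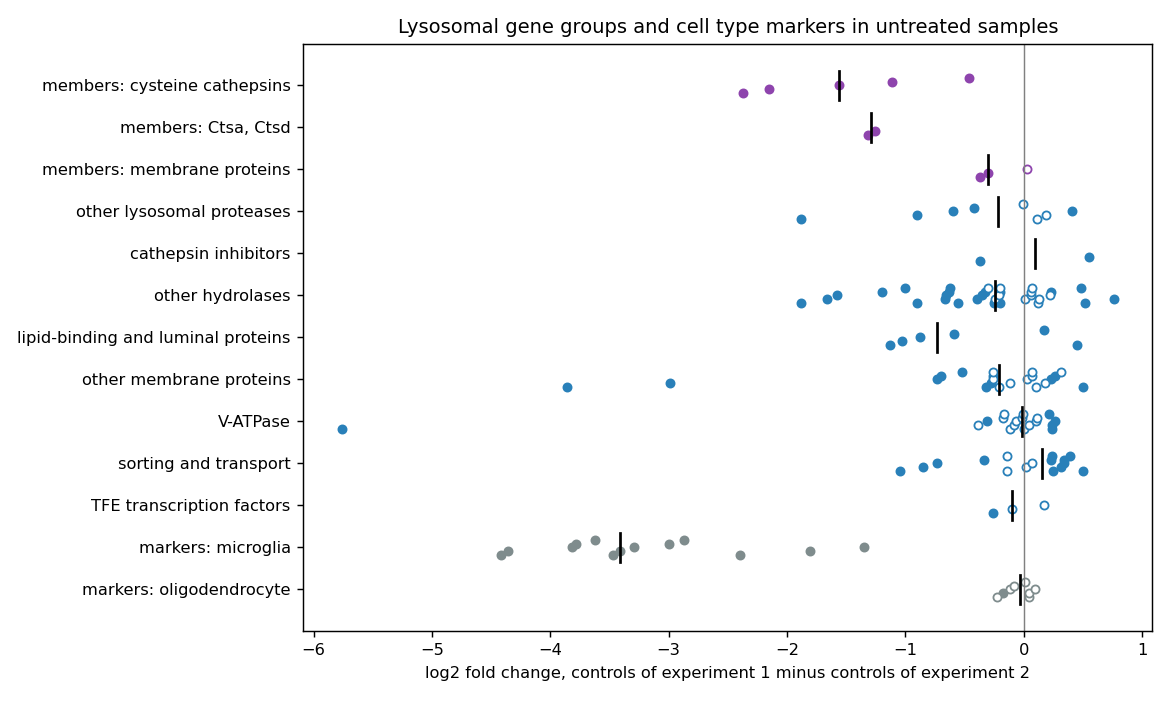
Log2 fold changes between the control samples of experiment 1 and experiment 2 for the 10 genes (purple), other lysosomal genes by function (blue) and markers of microglia and oligodendrocytes (grey), with 1 point per gene. Filled points passed an adjusted p of 0.05 and black lines mark medians, which were -1.56 for the cysteine cathepsins, -0.30 for the membrane proteins and -3.41 for the microglia markers.

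The study's first question was what the high ethanol concentration changes. At 30 mM, 1 of the 10 genes was called, Ctsb, which rose, against 9.67% of all 13235 genes tested (3.02% higher and 6.65% lower). The members' share thus stood at the level of all genes. No gene had all 6 ethanol samples on 1 side of all 6 controls, which 4.16% of all genes had. The median log2 fold change was -0.05 over the 10 genes and 0.023 over all genes.

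Ctsb had 1070, 1220 and 1360 CPM as its lowest, median and highest sample at 30 mM and 826, 1070 and 1130 CPM in the controls. Of the ethanol samples, 5 lay above every control and replicate 6, the lowest, among them. The means were 1220 ± 95.8 and 1040 ± 114 CPM (SD, n = 6), and the log2 fold change was 0.26 (SE 0.0622, adjusted p = 0.0047) or 1.19-fold. Control replicate 6 was far below the other controls, and without it the value was 0.20 (adjusted p = 0.0163). Without replicate 1 at 30 mM, the sample high in oligodendrocyte markers, it was 0.26 (adjusted p = 0.00237). The call was kept in all 12 fits that left out a sample and was lost when no filter on low counts was used (0.22, adjusted p = 0.0765). An absolute log2 fold change of 0.5 would also exclude it. Exons of Fdft1 overlap those of Ctsb on the opposite strand. The use of strand in counting is not given, so part of the Ctsb counts is uncertain.

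The other proteases had lower means at 30 mM and none passed. Ctss had a median of 38.9 CPM against 43.0 in the controls (log2 fold change -0.25, 95% interval -0.52 to 0.02, adjusted p = 0.258), with overlapping samples. Ctsc had 33.9 against 39.8 CPM (-0.24, interval -0.48 to 0.01, adjusted p = 0.238), and Ctsz had 101 against 120 CPM (-0.17, interval -0.34 to -0.01, adjusted p = 0.19). The samples of both groups overlapped in each of these genes. Ctsl (-0.12), Ctsd (-0.07) and Ctsa (-0.03) lay closer to 0, and the sign of Ctsa changed in 3 of 12 fits that left out a sample.

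Among the membrane proteins none passed at 30 mM. Lamp2 had a median of 288 CPM against 282 in the controls (0.11, interval -0.02 to 0.24, adjusted p = 0.282). Its highest ethanol sample was replicate 1, with 336 CPM. Cd63 had 0.07 (interval -0.05 to 0.19) and Lamp1 0.01 (interval -0.13 to 0.14), and the sign of Lamp1 changed with the filter and in 4 of 12 fits that left out a sample.

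Cell type markers moved at this dose. Oligodendrocyte markers were called higher in 7 of 8 cases, astrocyte markers in 5 of 8, and fibroblast and mural markers lower in 6 of 8, with summed levels of 369 to 431 CPM at 30 mM and 712 to 1050 CPM in the controls. The microglia markers summed to 261 to 395 CPM (median 325) at 30 mM and 235 to 393 CPM (median 325) in the controls, and 2 of 9 tested were called higher. The part of these shifts in the change of Ctsb was not tested.

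Of the 105 other lysosomal genes tested at 30 mM, 3 were higher and 3 lower, and their median log2 fold change was 0.00. Of all genes tested, 3.02% were higher and 6.65% lower, so these genes were not called more often than others. Cst3, the cathepsin inhibitor cystatin C, rose by 0.18 (adjusted p = 0.0317). Abca2, a lipid transporter of oligodendrocyte lysosomes, had 0.38 (adjusted p = 0.0138) and Sidt2, a lysosomal membrane protein, had 0.35 (adjusted p = 0.0103). Gla, the gene of alpha-galactosidase A, fell by 0.66 (adjusted p = 0.0166), Grn by 0.30 (adjusted p = 0.0134) and the proton pump subunit Atp6v1g1 by 0.25 (adjusted p = 0.0318). None of these 6 calls was kept in every fit that left out a sample. That of Sidt2 was lost without control replicate 1 (adjusted p = 0.0527). Abca2 was lost without replicate 1 at 30 mM or control replicate 3 (0.24 and 0.33, adjusted p = 0.0794 and 0.0574), Gla without replicate 6 or control replicate 2 (0.0644 and 0.0553, adjusted p) and Grn without replicate 6 or control replicate 4 (0.0587 and 0.0849, adjusted p). The calls of Cst3 and Atp6v1g1 were lost in 6 of 12 fits each. For Cst3 these were without replicates 2, 3, 5 or 6 or control replicates 1 or 2 (adjusted p 0.0531 to 0.104), and for Atp6v1g1 without replicates 3, 5 or 6 or control replicates 2, 3 or 5 (adjusted p 0.0577 to 0.0949). Without the filter on low counts both were lost as well (adjusted p = 0.362 and 0.0623), and Atp6v1g1 also under upper-quartile scaling (0.0582) and DESeq2 (0.0542).

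Of 7 other tetraspanins tested at 30 mM, 2 were higher, 1 was lower and 4 did not pass. Cd81, a tetraspanin of the cell surface and exosomes, rose by 0.29 (SE 0.0576, adjusted p = 0.000403) and Tspan2, a tetraspanin of oligodendrocytes, by 0.65 (SE 0.127, adjusted p = 0.00044), and both calls were kept in all 12 fits that left out a sample. Without replicate 1 at 30 mM, the sample high in oligodendrocyte markers, the value of Tspan2 was 0.40. Cd9 fell by 0.22 (adjusted p = 0.0232), a call lost without replicates 3, 5 or 6 or control replicates 3 or 4 (adjusted p 0.0767 to 0.116). Whether Cd63 differed from these genes was not tested.

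The second question was what the moderate concentration changes. At 10 mM none of the 10 genes was called by edgeR, DESeq2 or limma voom, against 0.657% of all 13538 genes tested by edgeR (0.391% higher and 0.266% lower). DESeq2 gave no adjusted p for Ctsc. At an unadjusted p under 0.05 there were 2, Ctsl and Lamp1, and 1366 of all 13538 genes. No gene had samples without overlap, which 0.842% of all genes had, and the median log2 fold change was -0.02 over the 10 genes and -0.002 over all.

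Ctsl had 1080, 1180 and 1350 CPM as its lowest, median and highest sample at 10 mM and 1250, 1340 and 1440 CPM in the controls, a log2 fold change of -0.16 (95% interval -0.27 to -0.06, adjusted p = 0.141). Replicates 5 and 6 lay among the controls, and the other 4 ethanol samples below all of them. Without replicate 6 at 10 mM the gene passed, with -0.20 (adjusted p = 0.0247). Lamp1 had 566, 593 and 658 CPM at 10 mM and 505, 553 and 580 CPM in the controls (0.12, interval 0.01 to 0.22, adjusted p = 0.415), with 3 ethanol samples above all controls.

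The remaining 8 genes lay within -0.11 and 0.04 at 10 mM. The narrowest intervals were those of Ctsb (-0.16 to 0.04), Ctsd (-0.11 to 0.09) and Cd63 (-0.12 to 0.09), and those of Ctss (-0.14 to 0.11), Ctsz (-0.12 to 0.10) and Ctsa (-0.08 to 0.16) were close to them. Each of these intervals included 0. The interval of Lamp2 (-0.21 to 0.04) was about as wide as that of Ctss, and that of Ctsc (-0.31 to 0.09) was the widest.

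Of the 106 other lysosomal genes tested at 10 mM, 1 was called, against 0.657% of all genes. Hgsnat, a membrane enzyme of heparan sulfate breakdown, fell by 0.47 (adjusted p = 0.0349). The call was kept in 4 of 12 fits that left out a sample (range of adjusted p 0.0153 to 0.16) and was lost without replicates 1, 2, 5 or 6 or control replicates 1, 4, 5 or 6. It was also lost under limma voom (adjusted p = 0.0518), without the filter on low counts (0.0529), with the replicate block (0.0537) and in a joint fit of all 24 samples (0.115). Among the tetraspanins Cd81 rose again, by 0.23 (SE 0.0505, adjusted p = 0.00986), and passed in all 12 such fits but not in that joint fit (adjusted p = 0.0545). Cell type markers also moved at 10 mM. Oligodendrocyte markers were called higher in 3 of 8 cases and summed to 5970 to 6140 CPM, against 4770 to 6070 CPM in the controls, and fibroblast and mural markers were lower in 2 of 7. Microglia markers (2 of 13 higher) summed to 3340 to 3900 CPM at 10 mM and 3080 to 3670 CPM in the controls, 1 of 4 neuron markers was higher, and no astrocyte marker of 8 was called. The part of these shifts in the changes of Cd81 and Hgsnat was not tested.

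**Figure D4:**
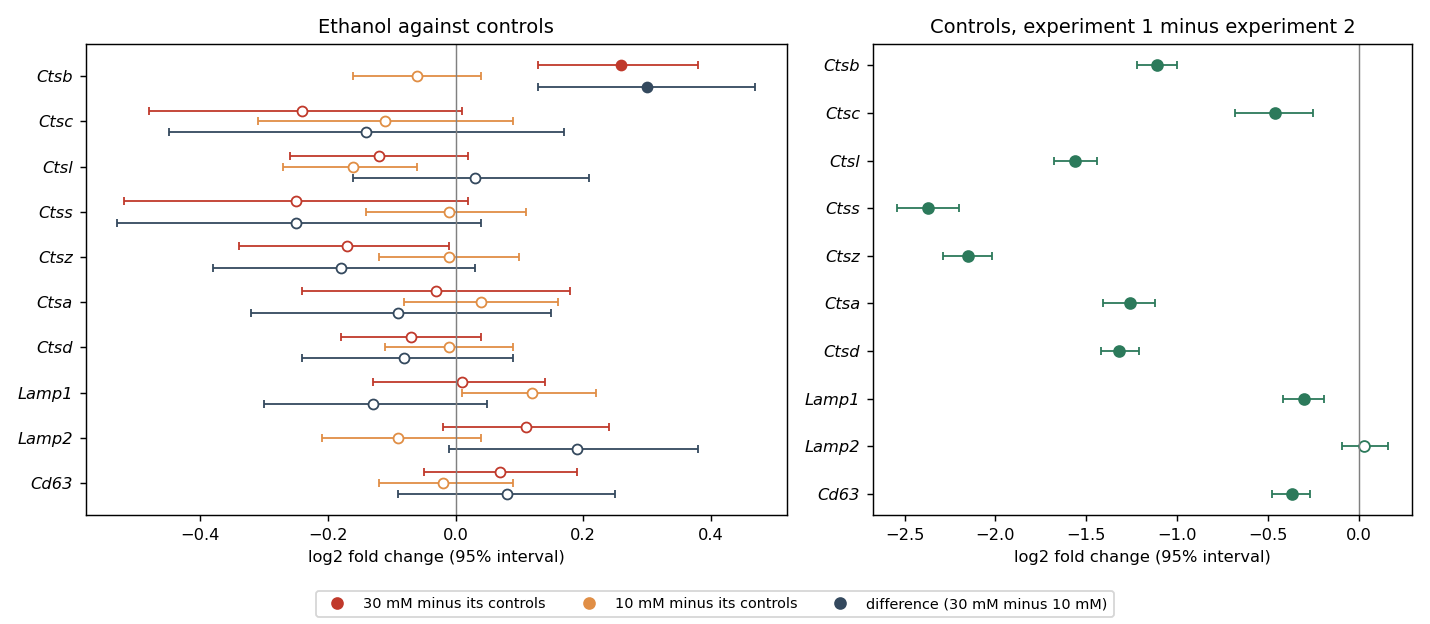
Log2 fold changes of the 10 genes with 95% intervals, on the left for 30 mM (red) and 10 mM (orange) against their controls and for the difference between these changes (dark blue), and on the right for the controls of experiment 1 against those of experiment 2. Filled points passed an adjusted p of 0.05. On the left only Ctsb does so, at 0.26 for 30 mM and 0.30 for the difference, while on the right 9 genes lie below 0.

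A fit of all 24 samples with an interaction term compared the response at 30 mM with that at 10 mM. Of the 10 genes 1 was called, Ctsb, against 3.28% of all 14655 genes tested (0.88% higher and 2.4% lower). Its change was 0.26 at 30 mM and -0.06 at 10 mM, a difference of 0.30 (SE 0.0849, adjusted p = 0.0304). The call was kept in 10 of 24 fits that left out a sample. It was lost without replicates 2, 3 or 4 at 30 mM, replicates 1, 2, 4 or 5 at 10 mM, control replicates 1, 2 or 6 of experiment 1 or control replicates 2, 3, 5 or 6 of experiment 2 (adjusted p 0.0557 to 0.0947), while the difference stayed between 0.23 and 0.32. For Lamp2 the difference was 0.19 (interval -0.01 to 0.38, adjusted p = 0.306), for Ctss -0.25 (interval -0.53 to 0.04, adjusted p = 0.374) and for Ctsz -0.18 (interval -0.38 to 0.03, adjusted p = 0.377). The contrast holds dose and experiment together, and the untreated level of Ctsb also differed between the experiments.

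Among the other lysosomal genes 2 of 106 were called for this difference, against 3.28% of all genes. Both had a more negative change at 30 mM. Atp6v1f, a proton pump subunit, had mean levels of 207 CPM at 30 mM and 241 CPM in its controls, and of 251 CPM at 10 mM and 224 CPM in its controls (difference -0.37, SE 0.0943, adjusted p = 0.0147), and was called in all 24 fits that left out a sample. Acp5, the tartrate-resistant acid phosphatase of macrophages and osteoclasts, had 6.71 and 11.5 CPM against 16.9 and 13.4 CPM (difference -1.10, SE 0.330, adjusted p = 0.0456). That call was kept in 9 of 24 such fits and was lost without replicates 4, 5 or 6 at 30 mM, replicates 1, 4, 5 or 6 at 10 mM, control replicates 2, 3 or 5 of experiment 1 or control replicates 1, 2, 3, 4 or 6 of experiment 2 (adjusted p 0.0504 to 0.109), and also under limma voom (adjusted p = 0.0576), total-count scaling (0.0548) and upper-quartile scaling (0.0747).

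The genes also varied between samples of the same group. With the mean of each group removed from log2 CPM, the pairs most alike over the 24 samples were Ctsb with Ctsl and Ctsd with Cd63 (Pearson r = 0.80 each), and Ctsb with Ctsd (0.76). Ctsc had the values farthest below 0, with -0.15 for Lamp1 and -0.07 for Ctsz. These r values describe 24 samples that share library depth and scaling within each sample. Control replicate 6 of experiment 1, the lowest of its group in Ctsb, Ctsl, Ctsd and Cd63, is among them. The r values were not computed without it.

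Among 13340 other genes with a mean log2 CPM of at least 3, those most alike to Ctsb by the same measure were Lyz2 (r = 0.87), Cd68 (0.85) and Fcer1g (0.82), genes of macrophages and microglia. For Ctss they were Cx3cr1 (0.84), the immunoproteasome subunit Psmb10 (0.79) and Srebf1 (0.78). For Ctsd they were Cyth2 (0.85), Grina (0.84) and Akr1a1 (0.82), and for Ctsl they were Ubxn1 (0.87), 1700025G04Rik (0.84) and Sys1 (0.83). Lamp1 was most like Psap (0.81), Clu (0.81) and Myl6 (0.80). Cd63 was most like Map4k4 (0.90), Ttc3 (0.86) and Anapc11 (0.85). For Lamp2 the values were lower, with Eml2 (0.75), Abhd17a (0.74) and Acaa1a (0.73). Ctsz (Rpl29, Ei24 and Pkm, 0.82 each), Ctsa (Rps4x, 0.81, Mrpl48, 0.79, and Sys1, 0.75) and Ctsc (Rfc4, 0.80, Rprd1b, 0.74, and Evi5, 0.74) had other genes at the top. The highest of so many values is high in part because it was picked as such.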

How the data were processed

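RNA of 24 samples was read by 3′ tag sequencing (single-end reads of 100 bases), which samples transcripts near their 3′ ends, so counts do not scale with transcript length. The authors deposited raw counts per Ensembl gene, 1 column per sample, per the file headers. The submitters' processing notes name cutadapt 1.18, STAR and GRCm39, and the annotation, counter, use of strand and removal of duplicates are not given in the sources used here. By the GENCODE M21 annotation, exons of other genes overlap those of Ctsa (Neurl2, Pltp), Ctsb (Fdft1), Ctsd (Gm49369), Ctsl (Gm47123, Gm49230), Ctsz (Nelfcd) and Lamp1 (Grtp1), so part of their counts is uncertain. Gm49369 and Gm49230 lie on the same strand as Ctsd and Ctsl, and the others, among them Fdft1 at Ctsb, on the opposite strand.

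Symbols matched 52083 of 55359 identifiers (94.1%). Levels are CPM scaled with TMM factors over all 24 samples. Groups were compared with edgeR 4.0.16 (R 4.3.3): TMM, filterByExpr at a minimum of 10 counts, quasi-likelihood test, Benjamini-Hochberg adjustment over all genes tested. A dose and the controls of its experiment made 1 fit, the controls of both experiments another, and the difference between doses used all samples. SE and 95% intervals come from this test, and the intervals are not adjusted for the number of genes tested. Simulated counts were used to test the scripts. DESeq2 1.42.0 and limma 3.58.1 (voom) were alternatives. No pair of samples of a group agreed within sampling noise (chi-square per degree of freedom 1.07 to 2.88).

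The members and lists were chosen with earlier results of these data known. Named besides the members were up to 3 called genes per list and ethanol comparison (2 between controls) with the smallest p, and the 3 genes most like each member. M6pr was named outside this rule, as the counterpart of Igf2r. Some markers are given beside the results.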

Additional observations from a re-analysis of the deposited data

Results flagged for a closer look

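A sample far from the other 5 of its group was found in 5 of 48 series of samples (CPM of each gene, the total count, and the share of counts taken by the 10 genes), where chance flags about 1 in 20, or 2.4. Control replicate 6 of experiment 1 accounted for 3 of them, with 826 CPM of Ctsb (other controls 1030 to 1130), 353 CPM of Ctsl (448 to 504) and a share of 0.499% (0.550% to 0.578%). These values come from 1 library and are not independent. Replicate 6 at 30 mM also had a low share, 0.514% (other samples 0.560% to 0.587%), and replicate 2 at 30 mM had 121 CPM of Ctsz (95.8 to 105).

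The change differed between the doses by the interaction test for Ctsb (0.30), Acp5 (-1.10) and Atp6v1f (-0.37), as differences of log2 fold changes, 30 mM minus 10 mM.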

How the results depend on the processing

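For every change listed, the cause was not tested. When calls also needed an absolute log2 fold change of at least 0.5, or with no filter on low counts, 0 of the 10 genes were called at 30 mM and 0 for the difference between doses, where an adjusted p under 0.01 also gave 0. Leaving out a sample gave 0 to 1 of the 10 genes at 10 mM and 0 to 1 for the difference; at 30 mM (1) and between controls (9) the counts did not move. Over all genes, an adjusted p under 0.1 called 150 at 10 mM and 854 for the difference, and under 0.01 it called 641 at 30 mM, 28 at 10 mM and 173 for the difference. The minimum change of 0.5 gave 444, 17 and 273, and 3168 between controls. A joint fit of 24 samples called 21 at 10 mM. Leaving out a sample gave 37 to 95 genes at 10 mM and 329 to 759 for the difference. Upper-quartile scaling called 551 higher and 697 lower at 30 mM, against 400 and 880, and 222 and 203 for the difference, against 129 and 352.

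Signs changed only for values near 0. Without the filter these were Lamp1 at 30 mM (-0.03), Ctss (0.01), Ctsz (0.02), Ctsd (0.01) and Cd63 (0.01) at 10 mM and the difference of Ctsl (-0.03), and for Lamp2 between controls the total count (-0.02), upper quartile (-0.03) and a minimum count of 30 (-0.03). Leaving out a sample gave -0.09 to 0.05 for Ctsa and -0.04 to 0.04 for Lamp1 at 30 mM. At 10 mM it gave -0.05 to 0.01 for Ctss, -0.04 to 0.02 for Ctsz, -0.04 to 0.03 for Ctsd and -0.05 to 0.01 for Cd63. It gave -0.05 to 0.06 for the difference of Ctsl and -0.01 to 0.07 for Lamp2 between controls.

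Whether same-numbered samples of ethanol and control groups were paired is not known. The correlation of their deviations ran from -0.176 to 0.241, which shows no general pairing and cannot exclude one. The highest r was that of replicate 6 in experiment 1, and the next highest was 0.041. Replicate 6 in experiment 1 was the only 1 of 12 pairs in which the number matched the best correlation, among 6 controls each. With the replicate number as a block, Ctsb at 30 mM had an adjusted p of 0.00139 and no call on the 10 genes changed.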
